A study of Mus musculus with 12 samples.

Results

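The dystrophin-glycoprotein complex links the actin cytoskeleton of a muscle fiber to the extracellular matrix. Its transcripts were followed here through 8 genes: Dmd (dystrophin), Utrn (utrophin), Dag1 (dystroglycan), Sgca, Sgcb and Sgcd (α-, β- and δ-sarcoglycan), Sntb1 (β1-syntrophin) and Dtna (α-dystrobrevin). The members were the rows of the count table whose Ensembl identifiers carry these symbols in the GENCODE annotation of GRCm38, and they are 8 of the 55487 genes listed. All 8 passed the filter on low counts, which left 14175 genes tested.

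C2C12 cells, an immortalized mouse myoblast line whose cells fuse to form myotubes with many nuclei, were differentiated for 5 days in medium with 2% horse serum. The myotubes were then kept for 24 h in medium with either 4% horse serum or 4% STEM, a solution of factors secreted by human embryonic stem cells that had begun to differentiate, with 6 libraries per group. STEM replaced the horse serum, so the presence of STEM and the absence of horse serum cannot be told apart. All libraries come from 1 cell line, and RNA was collected by the well, per the study's methods. Neither these nor the labels say whether the wells were independent cultures, so the p-values measure the spread between libraries, which may be technical.

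Horse serum libraries are numbered 1 to 6 and STEM libraries 7 to 12. A horse serum library held 13285472 to 18254882 counts (median 15533472) and a STEM library 14909485 to 24536264 (median 15740424). The members were well covered except for Dmd, which had between 90 and 478 counts per library, while each of the other members had at least 557. Values are given as CPM, counts relative to the size of each library after TMM scaling, which sets the libraries to a common scale.

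Dystrophin binds filamentous actin with one end and β-dystroglycan in the sarcolemma with the other. Dystroglycan is made as 1 precursor that is cleaved into a membrane-spanning β-subunit and an outer α-subunit, whose sugar chains bind laminin. The sarcoglycans form a membrane-spanning subcomplex that steadies this link, and syntrophins and dystrobrevins bind dystrophin on the inner face and hold signaling proteins there. Utrophin, a close relative of dystrophin, is found in developing and regenerating fibers and at the neuromuscular junction, and it can take dystrophin's place in the complex. Loss of dystrophin, of a sarcoglycan or of the sugar chains on α-dystroglycan causes muscular dystrophy.

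Horse serum library 6 stood apart from the other libraries of its group, and the result of each member and the counts of each list are therefore given with all 12 libraries and with the 11 that remain without it. On the first principal component of log2 CPM, which held 44.2% of the variance, horse serum libraries 1 to 5 lay between -35.5 and -24.6, library 6 lay at 11.2 and the STEM libraries between 15.5 and 28.6. On the second component, with 19.8% of the variance, library 6 lay at -53.3, and the other 11 libraries lay between 0.216 and 11.8. All 12 markers of myotubes that were examined were lowest in library 6 among the horse serum libraries. Their summed level was 6591 CPM in library 6, between 12458 and 13492 CPM in horse serum libraries 1 to 5 and between 10436 and 13213 CPM in the STEM libraries, and the most abundant of them was Acta1, skeletal muscle α-actin. The 7 markers of proliferating myoblasts, of which Top2a was the most abundant, summed to 1103 CPM in library 6, to between 682 and 998 CPM in horse serum libraries 1 to 5 and to between 525 and 625 CPM in the STEM libraries. These 7 did not move together in library 6, where 3 were the highest and 2 the lowest of the horse serum libraries. The highest were Mki67, Ccnb1 and Ccna2 and the lowest Pax7 (26.0 CPM) and Myf5 (15.9 CPM), all named after their values were seen. By edgeR's test over all 12 libraries, 2 of the 12 myotube markers were higher and 3 lower with STEM, and 5 of the 7 markers of proliferating myoblasts were lower, where 36.4% of all genes tested were called. Without library 6, 2 myotube markers were higher and 7 lower, and 5 markers of proliferating myoblasts were lower, where 50.8% of all genes were called. The part of these markers in the members' values was not tested. In these bulk libraries, fewer myotubes and less RNA per myotube cannot be told apart.

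Markers of other cell types were at low levels. The fibroblast markers Thy1, Lum and Tcf21, the macrophage markers Ptprc, Adgre1 and Lyz2, the Schwann cell marker Sox10 and the endothelial markers Pecam1 and Kdr had at most 3 counts in every library. The 6 fibroblast markers, of which Pdgfra was the most abundant, summed to between 19.4 and 26.9 CPM in horse serum libraries 1 to 5, to 31.4 CPM in library 6 and to between 29.2 and 34.1 CPM in the STEM libraries. Of these, Dpt was higher with STEM in both comparisons (log2 fold change 1.10 over all libraries, adjusted p = 0.000503), and Pdgfra only in the one without library 6 (log2 fold change 0.41 over all libraries, adjusted p = 0.112, and 0.67 without library 6, adjusted p = 2.48e-06), and Dpt is named after its values were seen. Their part in the members' values was not tested. Summed over each list in any library, the 6 macrophage markers reached at most 5.87 CPM (Cd68), the 5 Schwann cell markers 3.60 CPM (Mbp) and the 4 endothelial markers 1.0 CPM (Tek). The macrophage marker Csf1r, named after its values were seen, was at 0.335 ± 0.179 CPM (SD, n = 5) in horse serum libraries 1 to 5, at 0.0512 CPM in library 6 and at 0.916 ± 0.314 CPM (SD, n = 6) in the STEM libraries, and it passed the filter on low counts only without library 6 and only through the STEM libraries, so no test is given for it. Its part in the members' values was not tested. The labelled myotubes expressed all 12 of their markers, Acta1 at a mean of 3623 CPM.

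**Figure D1:**
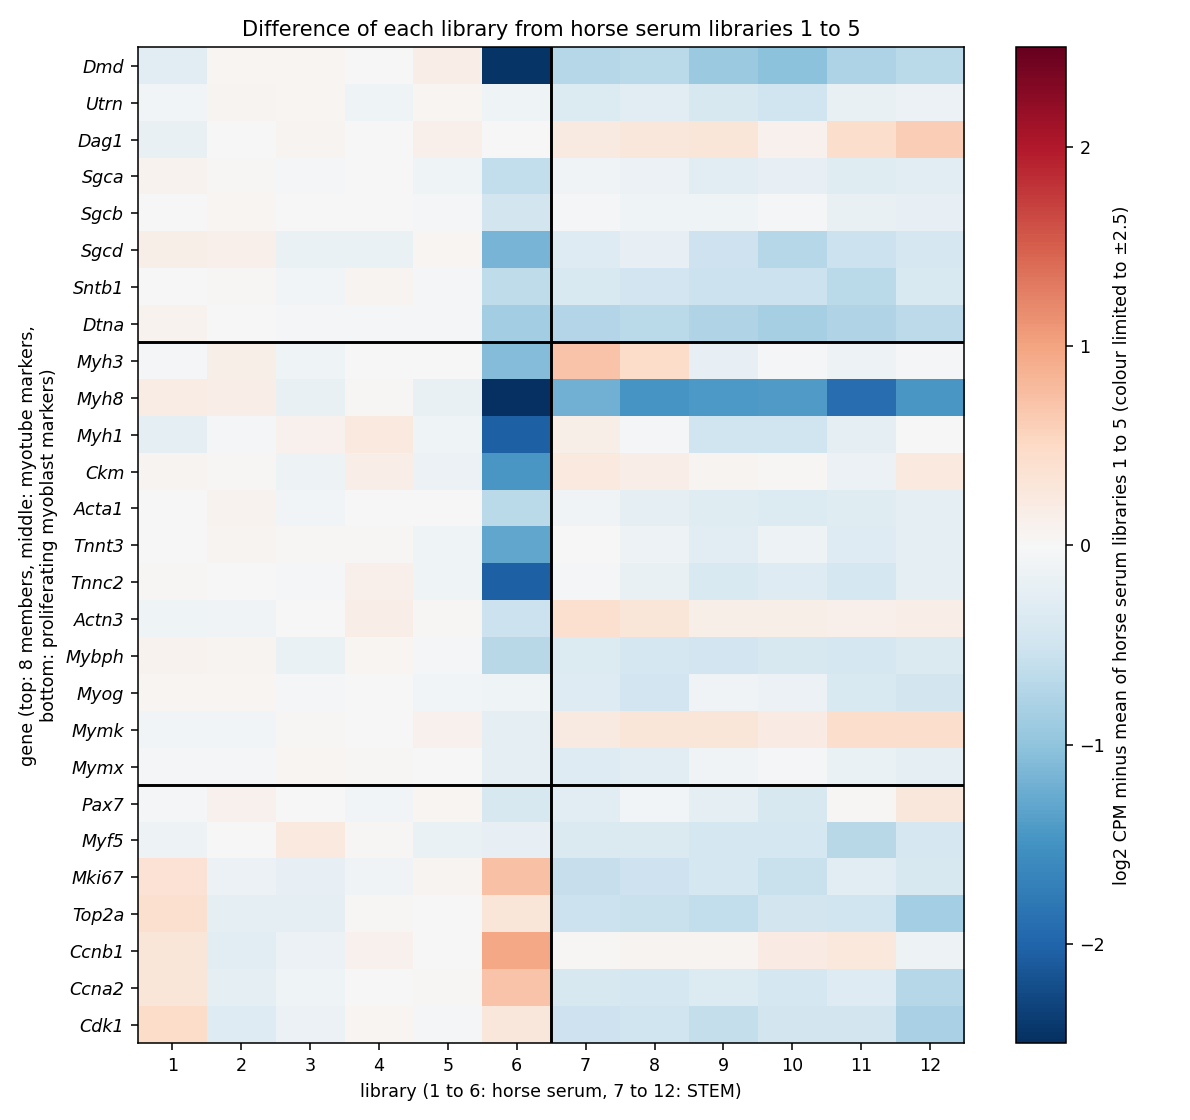
Log2 CPM of each gene (rows) in each library (columns) minus its mean over horse serum libraries 1 to 5, as color limited to ±2.5, for the 8 members (top), 12 myotube markers (middle) and 7 markers of proliferating myoblasts (bottom). Library 6 is blue for Dmd (-2.45) and most myotube markers, while Utrn (-0.11) and Dag1 (0.012) are near 0 in it.

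The genes lie apart in the mouse genome. In GRCm38, Dmd spans chrX:82948870-85206141 on the plus strand, Utrn chr10:12382188-12869365, Dag1 chr9:108204634-108263958, Sgca chr11:94962791-94976327, Sgcb chr5:73632749-73647790, Sgcd chr11:46896253-47988969 and Sntb1 chr15:55636388-55906949, all 6 on the minus strand. For 7 members no exonic base is shared with another annotated gene. Dtna shares 90 exonic bases with Gm47898 on the opposite strand, which had at most 2 counts in any library.

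Upstream windows from RefSeq's starts on GRCm38.p6, each of the 250 bases before a start, were examined for 6 of the 8 members (not for Sntb1 and Dtna), 8 windows in all. Windows are shown for Dmd, which had the lowest level per length and the lowest value in library 6 relative to its group, for Dag1, whose value was higher with STEM, and for Sgca, a gene of differentiated striated muscle. Capitals mark words found on either strand that match an E-box (CANNTG, bound by factors such as MyoD), a CArG box (bound by serum response factor) or a MEF2 box. The window before the 5′-most start of Dmd, at chrX:82948620-82948869 on the plus strand, held 2 E-boxes, 1 CArG box and 1 MEF2 box, whereas the window before a start inside the gene, at chrX:85048045-85048294, held none. The window before the 5′-most Dag1 start, chr9:108263959-108264208, and the Sgca window, chr11:94976328-94976577, both on the minus strand, held 1 E-box each. The sequences read 5′ to 3′ toward the start.
Dmd, first start: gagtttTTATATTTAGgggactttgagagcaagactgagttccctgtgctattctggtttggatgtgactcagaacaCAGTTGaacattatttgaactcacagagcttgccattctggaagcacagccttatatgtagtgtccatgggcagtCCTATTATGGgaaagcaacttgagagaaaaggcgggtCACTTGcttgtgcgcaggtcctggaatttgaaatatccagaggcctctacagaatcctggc
Dmd, inner start: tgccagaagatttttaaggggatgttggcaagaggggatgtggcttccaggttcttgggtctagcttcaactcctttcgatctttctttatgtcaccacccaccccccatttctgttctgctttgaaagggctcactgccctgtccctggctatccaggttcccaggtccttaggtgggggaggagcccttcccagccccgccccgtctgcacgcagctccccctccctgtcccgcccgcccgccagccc
Dag1: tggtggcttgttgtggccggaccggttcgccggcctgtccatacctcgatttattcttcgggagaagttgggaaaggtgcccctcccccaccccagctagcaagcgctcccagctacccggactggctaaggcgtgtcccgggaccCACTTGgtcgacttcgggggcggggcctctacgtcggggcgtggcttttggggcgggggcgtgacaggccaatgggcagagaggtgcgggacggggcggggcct
Sgca: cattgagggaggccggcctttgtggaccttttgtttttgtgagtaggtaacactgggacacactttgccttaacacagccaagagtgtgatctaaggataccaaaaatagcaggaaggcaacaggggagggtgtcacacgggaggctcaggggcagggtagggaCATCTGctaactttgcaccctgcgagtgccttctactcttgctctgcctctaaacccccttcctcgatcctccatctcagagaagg

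Among all 32807 RefSeq windows of 250 bases, 66.2% held an E-box, 1.47% a CArG box and 2.92% a MEF2 box, and the median content of G and C was 52.4%. Of the 8 windows of these 6 members, 6 held an E-box, but the 2 windows of Dag1 overlap and share theirs. The first Dmd window held 45.2% G and C, the inner one 60.0%, the Dag1 window 67.6% and the Sgca window 52.8%. A match describes the letters of the window and is not evidence of binding. The counts join the transcripts from all starts of a gene, so the Dmd starts were not measured apart.

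With all 12 libraries, 4 of the 8 members differed between the groups. Utrn, Sntb1 and Dtna were lower with STEM and Dag1 was higher, by edgeR's quasi-likelihood test with a Benjamini-Hochberg adjusted p of 0.05 or less over all genes tested. Among all 14175 genes tested, 36.4% were called, 17.4% lower with STEM and 18.9% higher. The median log2 fold change of the members was -0.30, and that of all genes was 0.012.

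Without horse serum library 6, all 8 members were called, with 7 lower and Dag1 higher with STEM. More genes in general were called in this comparison too, 50.8% of the 14267 genes tested, 24.5% lower and 26.3% higher. The members' median log2 fold change was -0.38, that of all genes 0.008. The groups did not overlap for 1 member, Utrn, over all 12 libraries (17.2% of all genes tested) and for 5 members, Dmd, Utrn, Sgcd, Sntb1 and Dtna, without library 6 (33.3% of all genes tested).

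**Figure D2:**
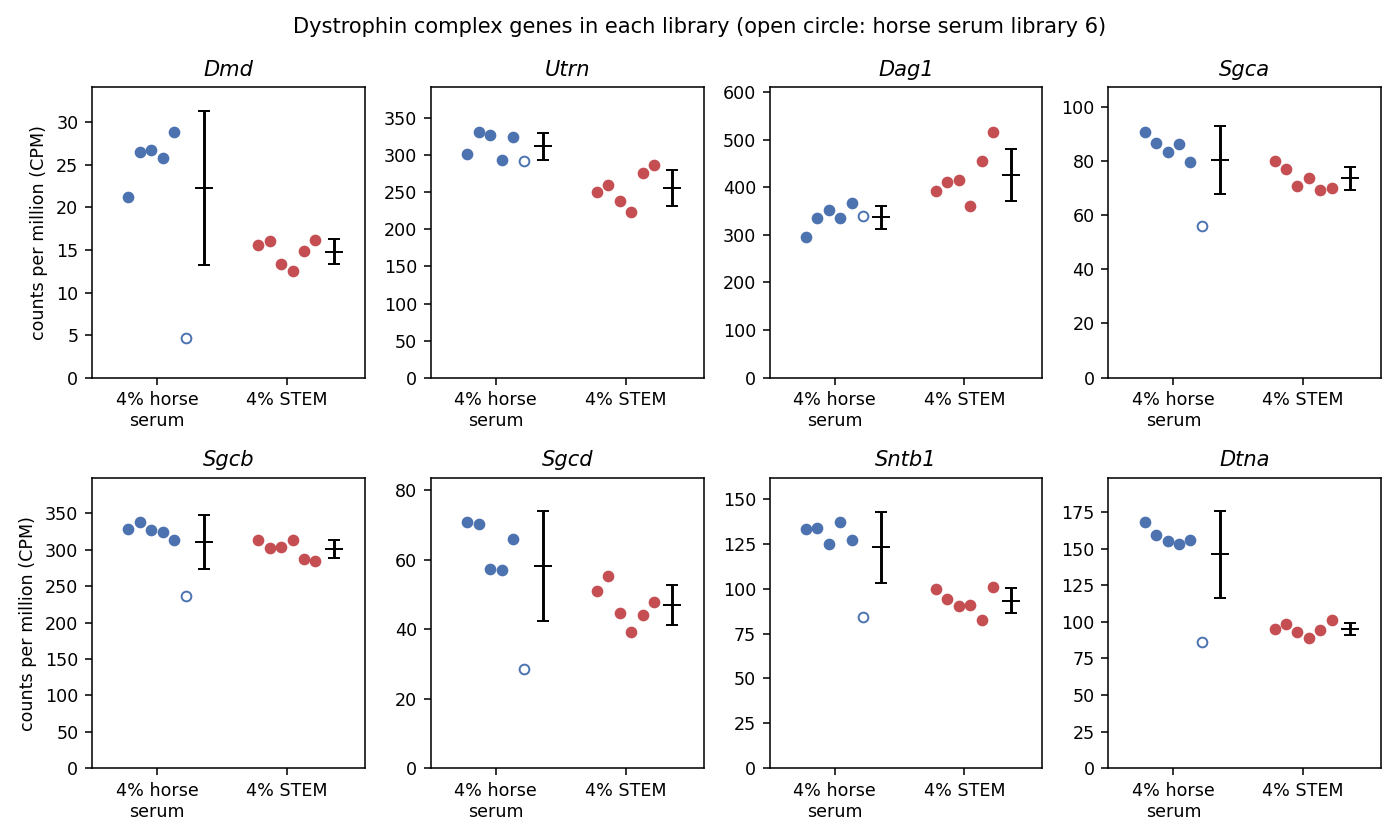
CPM of each member (vertical axis, from 0) in each library, with horse serum on the left, STEM on the right and library 6 as an open circle. Black marks give the mean and SD of all 6 libraries of a group, and library 6 is the lowest horse serum library for 7 of the 8 members, the exception being Dag1.

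Dmd, which encodes dystrophin, was at 21.2, 26.5, 26.7, 25.8 and 28.9 CPM in horse serum libraries 1 to 5 and at 4.61 CPM in library 6. In STEM libraries 7 to 12 it was at 15.6, 16.0, 13.4, 12.5, 14.9 and 16.2 CPM. Horse serum libraries 1 to 5 thus all lay above the STEM libraries, and library 6 lay below them all, at 17.9% of the mean of the other 5. Over all 12 libraries the means were 22.3 ± 9.03 CPM (SD, n = 6) with horse serum and 14.8 ± 1.49 CPM (SD, n = 6) with STEM, a log2 fold change of -0.58 with a 95% interval from -1.29 to 0.13 (adjusted p = 0.184). Without library 6 the horse serum mean was 25.8 ± 2.84 CPM (SD, n = 5), and the log2 fold change was -0.80 with an interval from -0.98 to -0.63 (adjusted p = 1.78e-07). The call for Dmd therefore rests on whether this 1 library is included.

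Utrn, which encodes utrophin, was at 302, 332, 328, 294, 325 and 292 CPM in horse serum libraries 1 to 6 and at 250, 260, 238, 223, 276 and 287 CPM in STEM libraries 7 to 12. All 6 STEM libraries lay below all 6 horse serum libraries, with 287 and 292 CPM as the nearest values. Utrn fell by 0.29 on the log2 scale (SE 0.0625, adjusted p = 0.00229), from 312 ± 18.3 to 256 ± 23.9 CPM (SD, n = 6 each). Library 6 was at 92.5% of the mean of the other horse serum libraries, and without it the log2 fold change was -0.31 (adjusted p = 0.000290). The exact permutation test over the 12 libraries, two-sided, gave p = 0.00216, the smallest that 6 against 6 libraries can give.

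Dystrophin and utrophin transcripts were set side by side per length, as CPM per kb of annotated exon. The ratio of Utrn to Dmd on this scale was 19.8, 17.4, 17.1, 15.8 and 15.7 in horse serum libraries 1 to 5, and 88.2 in library 6. In the STEM libraries it was 22.2, 22.6, 24.7, 24.8, 25.7 and 24.7. The ratio was thus higher in each STEM library than in any of horse serum libraries 1 to 5, with means of 24.1 ± 1.39 (SD, n = 6) and 17.2 ± 1.67 (SD, n = 5), while library 6 alone brings the horse serum mean to 29.0 ± 29.0 (SD, n = 6). Without library 6 both transcripts were lower with STEM. Per kb of the longest coding transcript, the means were 20.9 ± 1.2 and 14.8 ± 1.44, and library 6 was at 76.3. The ratio is a description and was not tested.

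Dag1, which encodes both subunits of dystroglycan, was the only member with a higher level in STEM than in horse serum libraries by the test. It was at 295, 336, 353, 335, 366 and 339 CPM in horse serum libraries 1 to 6 and at 393, 411, 416, 360, 455 and 517 CPM in STEM libraries 7 to 12. STEM library 10, at 360 CPM, lay within the horse serum range, and the other 5 STEM libraries lay above it. Dag1 rose from 337 ± 23.9 to 425 ± 54.6 CPM (SD, n = 6 each), a log2 fold change of 0.34 (SE 0.0777, adjusted p = 0.00349). Library 6 was at 101% of the mean of the other horse serum libraries, and without it the log2 fold change was again 0.34 (adjusted p = 0.00408). The exact permutation test gave p = 0.00433 over all 12 libraries.

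Sgca, which encodes α-sarcoglycan, the member of the subcomplex made mainly in striated muscle, was at 90.8, 86.4, 83.2, 86.2 and 79.7 CPM in horse serum libraries 1 to 5 and at 56.0 CPM in library 6. The STEM libraries were at 80.0, 77.1, 70.8, 73.7, 69.2 and 70.1 CPM. Without library 6 the groups touched only between 79.7 CPM in horse serum library 5 and 80.0 CPM in STEM library 7. The log2 fold change was -0.13 with a 95% interval from -0.33 to 0.073 over all libraries (adjusted p = 0.311) and -0.21, from -0.31 to -0.11, without library 6 (adjusted p = 0.000860).

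Sgcb, which encodes β-sarcoglycan, was at 328, 338, 327, 324 and 314 CPM in horse serum libraries 1 to 5 and at 236 CPM in library 6. The STEM libraries were at 313, 303, 304, 314, 288 and 284 CPM. Of the 6 STEM libraries, 5 lay below the first 5 horse serum libraries, 1 lay at about their lowest value, and all lay above library 6. The log2 fold change was -0.047 with an interval from -0.20 to 0.11 over all libraries (adjusted p = 0.648). Without library 6 it was -0.11, from -0.20 to -0.034 (adjusted p = 0.0186), the smallest change among the members in that comparison.

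Sgcd, which encodes δ-sarcoglycan, was at 70.8, 70.2, 57.3, 57.0 and 65.9 CPM in horse serum libraries 1 to 5 and at 28.5 CPM in library 6. The STEM libraries were at 51.0, 55.3, 44.8, 39.1, 44.1 and 47.8 CPM. Horse serum libraries 1 to 5 lay above all STEM libraries, and library 6 lay below all of them, at 44.4% of the mean of the other 5. The log2 fold change was -0.31, with an interval from -0.70 to 0.090, over all libraries (adjusted p = 0.214), and -0.45, from -0.63 to -0.26, without library 6 (adjusted p = 0.000533).

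The 3 sarcoglycans of this set thus shared a pattern with Dmd. None was called over all 12 libraries, each was lower with STEM without library 6, and each was lowest in library 6. That library was at 65.6% of the mean of the other horse serum libraries for Sgca and at 72.4% for Sgcb. Being lower with STEM without library 6 and being lowest in it were not particular to these genes, as each held for 7 of the 8 members. Of all genes tested, 24.5% were called lower without library 6, and 33.1% had their lowest horse serum value in it.

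Sntb1, which encodes β1-syntrophin, a scaffold that binds the end of dystrophin and signaling proteins, was at 133, 134, 125, 137 and 127 CPM in horse serum libraries 1 to 5 and at 84.2 CPM in library 6. The STEM libraries were at 100, 94.5, 90.2, 91.0, 82.6 and 101 CPM. Apart from library 6, which lay within the STEM range, the groups were separated by a gap from 101 to 125 CPM. Sntb1 fell by 0.40 on the log2 scale (SE 0.0999, adjusted p = 0.00610) over all libraries and by 0.49 (SE 0.0483, adjusted p = 1.07e-07) without library 6.

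Dtna, which encodes α-dystrobrevin, a relative of dystrophin that binds both dystrophin and syntrophin, was at 168, 159, 155, 153 and 156 CPM in horse serum libraries 1 to 5 and at 86.3 CPM in library 6. The STEM libraries were at 94.9, 98.8, 93.1, 89.0, 94.1 and 101 CPM. The STEM values lay close together, below horse serum libraries 1 to 5 and above library 6. Dtna fell from 146 ± 29.8 to 95.1 ± 4.18 CPM (SD, n = 6 each), a log2 fold change of -0.62 (SE 0.125, adjusted p = 0.00184). Without library 6 it was -0.73 (SE 0.0396, adjusted p = 5.65e-11) from a horse serum mean of 158 ± 5.86 CPM (SD, n = 5), and Dtna and Dmd had the lowest log2 fold changes of the 8 members in both comparisons.

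**Figure D3:**
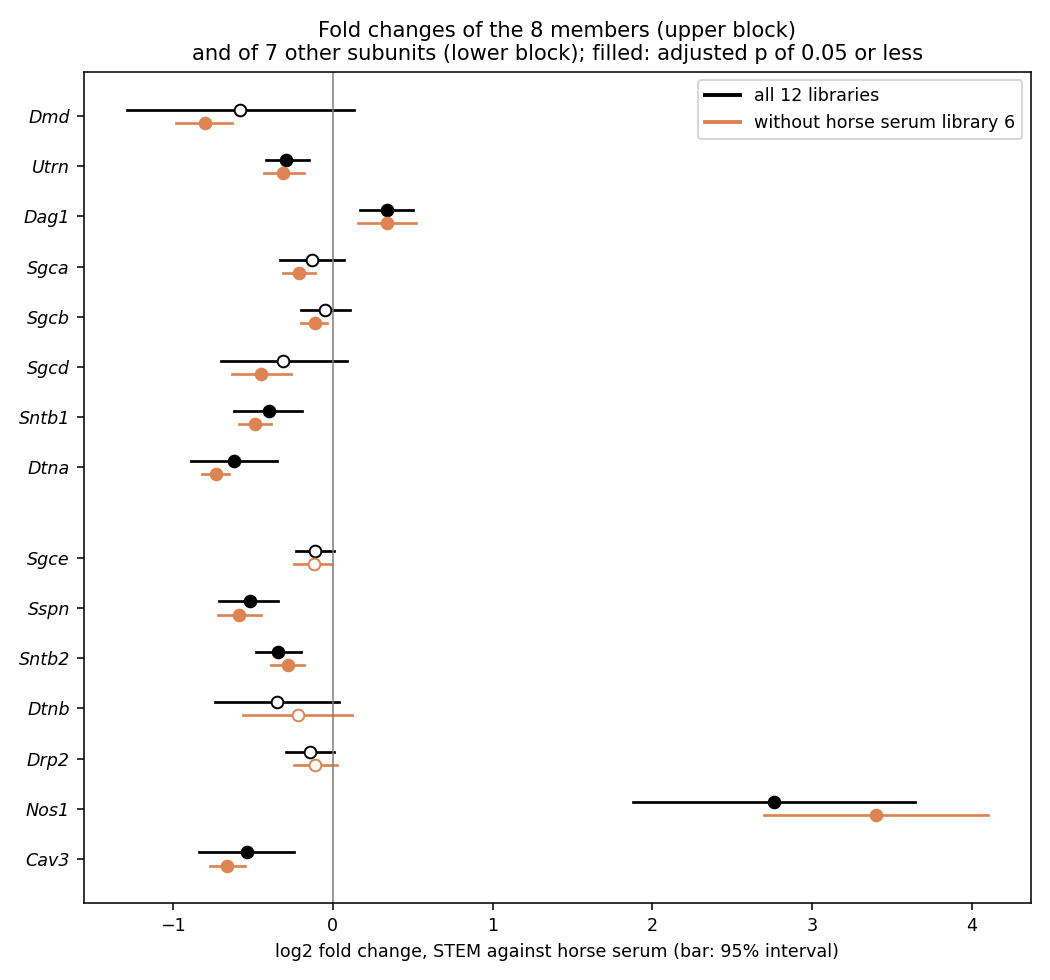
Log2 fold change, STEM against horse serum, with its 95% interval for the 8 members (upper block) and 7 of the 9 other subunits tested (lower block), over all 12 libraries in black and without library 6 in orange. Filled points have an adjusted p of 0.05 or less, and the intervals of Dmd, Sgca, Sgcb and Sgcd include 0 only with all 12 libraries. Nos1 passed the filter on low counts only through the STEM libraries, so its intervals and fill are no support.

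Levels of different genes were compared per length. With horse serum, Sgcb had the highest level, 76.8 ± 9.25 CPM per kb of annotated exon (SD, n = 6), followed by Dag1 at 53.0 ± 3.76, Sgca at 46.3 ± 7.22, Sntb1 at 23.2 ± 3.72, Utrn at 18.2 ± 1.07, Dtna at 8.63 ± 1.76, Sgcd at 7.06 ± 1.91 and Dmd at 0.937 ± 0.379 CPM per kb. Of neighbors in this order, the ranges over the 6 libraries overlapped for Dag1 and Sgca, for Sntb1 and Utrn and for Dtna and Sgcd. Within single libraries, Sgcb exceeded Dag1 in 6 of 6 and Dag1 exceeded Sgca in 5 of 6. Library 6 had no effect on the order of the means.

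With STEM, Sgcb (74.3 ± 3.09 CPM per kb, SD, n = 6) and Dag1 (66.9 ± 8.59) had overlapping ranges, and Sgcb exceeded Dag1 in 4 of 6 libraries. The ranges of Sgcd (5.70 ± 0.688) and Dtna (5.62 ± 0.247) overlapped too. Dmd was the lowest again, at 0.621 ± 0.0628 CPM per kb.

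The order in the middle depended on the length used. Per kb of the longest coding transcript, a choice added after the data were seen, Utrn, Sntb1, Sgcd and Dtna lay between 23.2 and 25.2 CPM per kb on average with horse serum, with overlapping ranges. Dmd was also the lowest on this scale, at 1.5 ± 0.606 CPM per kb with horse serum and 0.991 ± 0.100 with STEM (SD, n = 6 each). Its annotated exons sum to 23801 bases and its longest coding transcript to 14910.

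**Figure D4:**
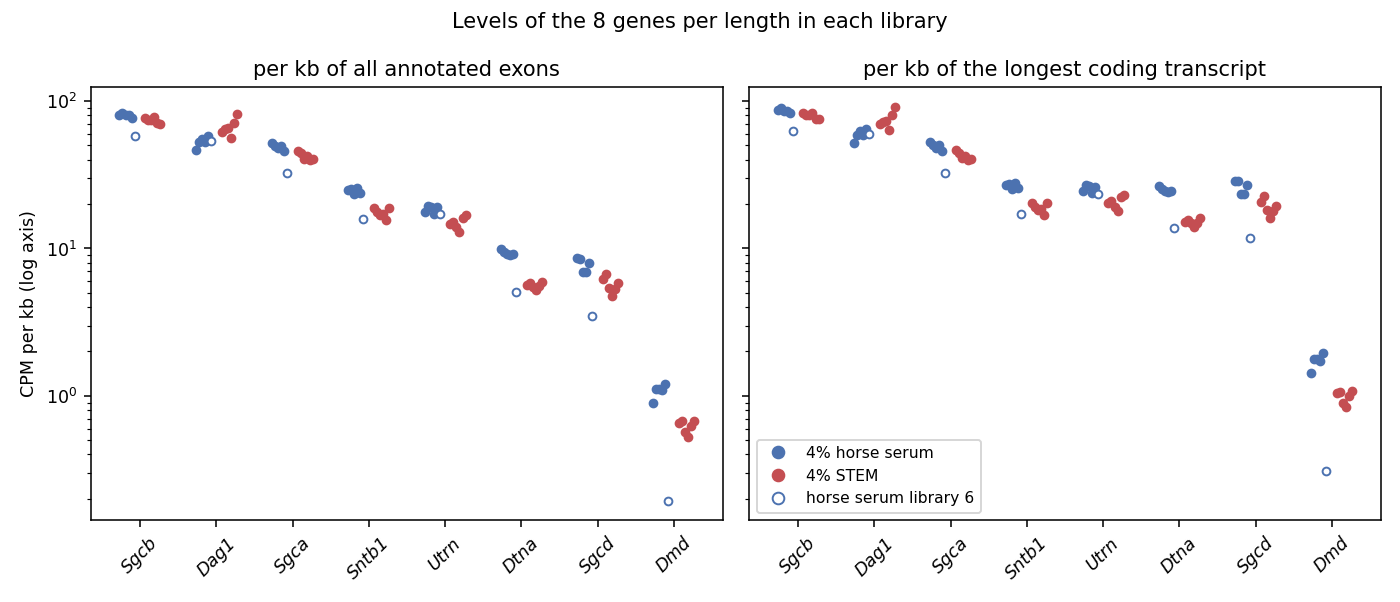
CPM per kb (log axis) of each member in each library, horse serum in blue and STEM in red, per kb of all annotated exons (left) or of the longest coding transcript (right). Sgcb is highest on average and Dmd lowest on both scales, while Sgcd and Dtna shift upward on the right.

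Related genes were examined as 5 lists. Over all 12 libraries 31 genes of these lists were called, among them Nos1, which passed the filter on low counts only through the STEM libraries. All 31 were called in the same direction without library 6, so their values are given over all 12 libraries unless stated otherwise. The counts of each list stand beside 36.4% of all genes called over all 12 libraries (17.4% lower, 18.9% higher, median log2 fold change 0.012) and 50.8% without library 6 (24.5% lower, 26.3% higher, median 0.008).

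Other subunits of the complex were examined as a list of 12 genes, of which 9 were tested. Over all 12 libraries, 1 was higher and 4 were lower with STEM (55.6% of those tested called), and the median log2 fold change was -0.34. Without library 6, 1 was higher and 5 were lower (66.7% called), with a median of -0.23. The higher call in both comparisons was that of Nos1, which passed the filter on low counts only through the STEM libraries. The sarcoglycan gene Sgcz and the γ2-syntrophin gene Sntg2 had no counts in any library, and Sntg1, the γ1-syntrophin gene, had at most 1 count.

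Nos1, which encodes the neuronal nitric oxide synthase that syntrophin anchors to the complex, was the subunit that rose. It was at 0.137, 1.47, 0.988, 0.514, 1.27 and 3.43 CPM in horse serum libraries 1 to 6, where it had between 2 and 67 counts. In STEM libraries 7 to 12 it was at 7.18, 8.19, 8.02, 8.0, 11.8 and 12.7 CPM, all above the horse serum libraries. The log2 fold change was 2.76 over all libraries and 3.40 without library 6, which had the highest horse serum value. Nos1 passed the filter on low counts only through the STEM libraries, so no p-value is given for it. Its call in the counts of the list, and its intervals and filled points in the figures, are no support beyond these values. With at least 10 counts asked of every library Nos1 was not tested, and 4 other subunits were called, all lower.

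Of the subunits that fell, Sspn, Cav3 and Sntb2 are given. Sspn encodes sarcospan, a membrane protein held by the sarcoglycans, and fell from 168 ± 21.7 to 117 ± 11.5 CPM (SD, n = 6 each, log2 fold change -0.52, adjusted p = 0.000351). Cav3, the caveolin of muscle, fell from 158 ± 33.9 to 108 ± 9.55 CPM (log2 fold change -0.54, adjusted p = 0.00876). For Sspn and Cav3 library 6 was the lowest horse serum library, and without it their log2 fold changes were -0.59 and -0.66. Sntb2, the β2-syntrophin gene, went from 49.1 ± 4.53 to 38.8 ± 2.35 CPM (log2 fold change -0.34, adjusted p = 0.000816), and library 6 was here the highest horse serum library, at 58.2 CPM.

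Genes that build the sugar chains of α-dystroglycan formed a list of 19, of which 18 were tested. Over all libraries 7 were higher and 1 was lower with STEM (44.4% of those tested called), with a median log2 fold change of 0.10. Without library 6, 8 were higher and 3 lower (61.1% called), with a median of 0.16. Gmppb, which makes the mannose donor GDP-mannose, had the lowest p of the list and rose from 15.7 ± 3.12 to 30.5 ± 2.14 CPM (SD, n = 6 each, log2 fold change 0.95, adjusted p = 1.01e-05). Pomgnt1, a transferase that extends O-mannose, rose from 85.4 ± 6.06 to 112 ± 3.0 CPM (log2 fold change 0.40, adjusted p = 2.51e-05). B3galnt2, another transferase of these chains, rose by a log2 fold change of 0.44 (adjusted p = 4.71e-05).

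Of the same list, Gne, which starts sialic acid synthesis, rose by a log2 fold change of 0.36 (adjusted p = 0.000486) and Dolk, which makes the lipid carrier of mannose, by 0.30 (adjusted p = 0.000991). The gene that fell, named after its values were seen, was Dpm1, the catalytic subunit of dolichol-phosphate mannose synthase, with a log2 fold change of -0.38 (adjusted p = 0.00971). Large2 had at most 7 counts in any library and was not tested.

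Matrix ligands of dystroglycan were 11 genes, of which 10 were tested, and Egflam (pikachurin) had at most 2 counts. In both comparisons 4 were higher and 1 was lower with STEM (5 of the 10 called), with median log2 fold changes of 0.15 and, without library 6, 0.20. Lama2, the α2 chain of the main laminin of muscle, fell from 132 ± 11.3 to 105 ± 9.86 CPM (SD, n = 6 each, log2 fold change -0.33, adjusted p = 0.00175). Lama1, the α1 chain, rose from 3.22 ± 2.93 to 12.4 ± 2.32 CPM (log2 fold change 1.87, adjusted p = 0.00312), and without library 6, at 9.02 CPM the highest horse serum library, its log2 fold change was 2.56. The chains Lamc1 and Lamb2 rose by 0.29 and 0.24 (adjusted p = 0.00198 and 0.0147). Bgn, biglycan, a proteoglycan that binds α-dystroglycan and sarcoglycans, rose from 446 ± 48.9 to 613 ± 78.1 CPM (log2 fold change 0.46, adjusted p = 0.000798).

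Cytoskeletal and membrane partners were 15 genes, of which 13 were tested. Over all libraries 4 were higher and 3 were lower (53.8% of those tested called), and the median log2 fold change was -0.024. Without library 6, 5 were higher and 6 lower (84.6% called), with a median of -0.075. Ahnak, a large scaffold at the membrane, fell from 3165 ± 171 to 2371 ± 205 CPM (SD, n = 6 each, log2 fold change -0.42, adjusted p = 0.000134). Ank3, an ankyrin that binds dystrophin, fell by 0.57 on the log2 scale (adjusted p = 0.000878), and Krt19, a keratin that binds dystrophin, by 1.49 (adjusted p = 0.0114). Plec, the plectin that ties dystrophin and dystroglycan to intermediate filaments, rose from 628 ± 109 to 967 ± 222 CPM (log2 fold change 0.62, adjusted p = 0.00650). Dysf, dysferlin of membrane repair, rose by a log2 fold change of 0.36 (adjusted p = 0.00224). The keratin genes Krt8 and Krt18 had at most 10 and 2 counts.

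The other laminin receptor of myotubes, integrin α7β1, and its adaptors were 10 genes, all tested. Over all libraries 1 was higher and 5 were lower with STEM (60.0% called), and the median log2 fold change was -0.16. Without library 6, 2 were higher and 6 lower (80.0% called), with a median of -0.23. Itga7, the α7 chain, fell from 1106 ± 49.4 to 923 ± 29.5 CPM (SD, n = 6 each, log2 fold change -0.26, adjusted p = 0.000414). Lims1, an adaptor also called PINCH1, had the lowest p of the list and fell from 335 ± 15.3 to 245 ± 15.2 CPM (log2 fold change -0.45, adjusted p = 9.25e-06). Vcl (vinculin) fell by 0.25 and Ilk (integrin-linked kinase) by 0.16 on the log2 scale (adjusted p = 0.000995 and 0.0163), and Tln2 (talin 2) rose by a log2 fold change of 0.24 (adjusted p = 0.00878).

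**Figure D5:**
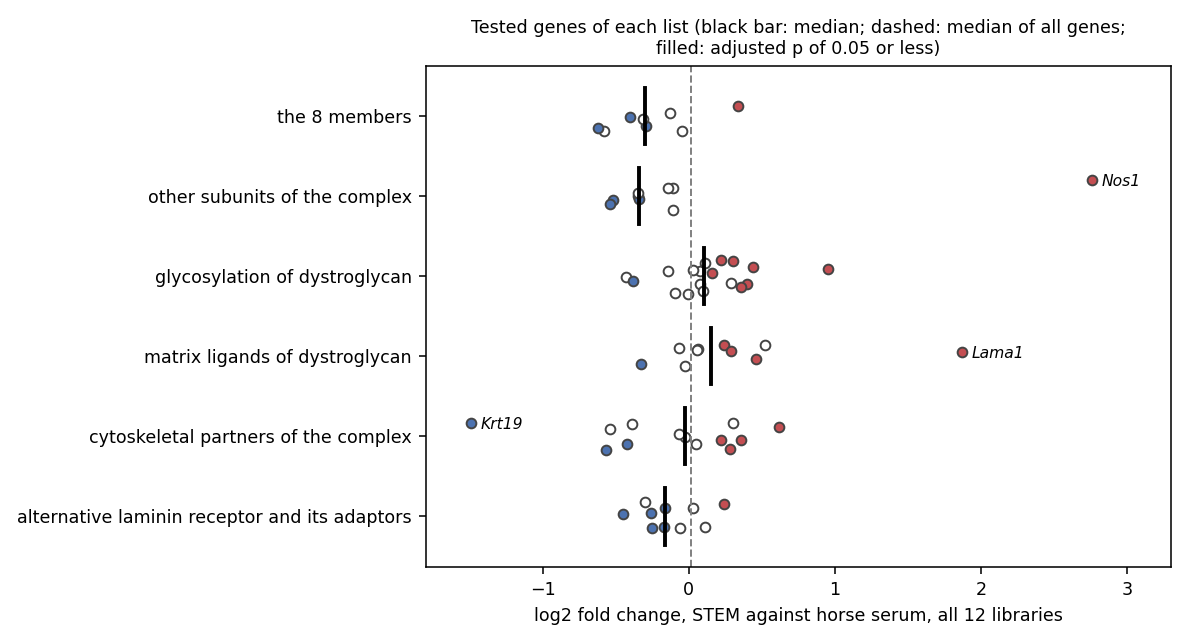
Log2 fold change, STEM against horse serum over all 12 libraries, of each tested gene of the 8 members and the 5 related lists, spread vertically within a list only to separate the points. Filled points have an adjusted p of 0.05 or less (red higher, blue lower), black bars mark each list's median and the dashed line the median of all genes, 0.012, and Nos1 (2.76), Lama1 (1.87) and Krt19 (-1.49) lie farthest out. Nos1 passed the filter on low counts only through the STEM libraries, so its fill is no support.

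The members were also compared by their course over the libraries, as a description without a test. These correlations hold the difference between the groups, because each library belongs to 1 of 2 groups, and over 12 libraries also the value of library 6. Over the 11 libraries without it, Pearson's r of log2 CPM was between 0.41 and 0.96 for the 21 pairs of members without Dag1, and between -0.93 and -0.33 for the 7 pairs with Dag1. Over all 12 libraries the ranges were 0.15 to 0.96 and -0.59 to -0.14.

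Among 13282 tested genes with a mean of at least 1 CPM and a symbol, the 3 whose log2 CPM had the highest Pearson's r with each member were listed, of which 2 are given for Sgca. Over 12 libraries these were Smpx, Car3 and Cystm1 for Dmd (r from 0.980 to 0.985), Ccdc50, Lnpep and Ahnak for Utrn (0.958 to 0.974), Mylk, Prdm2 and Pard3 for Dag1 (0.961 to 0.971), Tnni1 and Vdac1 for Sgca (0.979 to 0.980), Bag1, Atp5c1 and Bin1 for Sgcb (0.969 to 0.971), Pfkfb3, Eno1 and Egln1 for Sgcd (0.978 to 0.979), Il15, Tcea3 and Ldhb for Sntb1 (0.982 each) and F730043M19Rik, Txnip and Gpx3 for Dtna (0.987 to 0.991). Like Dmd, Smpx and Car3 were at low values in library 6, 28.3 and 32.7 CPM against horse serum means of 229 and 344 CPM.

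Over the 11 libraries without library 6, the genes most like each member were largely others. They were Chst15, Zdhhc21 and Ubxn7 for Dmd (r from 0.977 to 0.983), Ccdc50, Ece1 and Phip for Utrn (0.974 to 0.976), Zfp36l1, Nav1 and BC005537 for Dag1 (0.977 to 0.983), Tpm3 and Fh1 for Sgca (0.970 to 0.971), Eif3m, Eif3e and 1810010H24Rik for Sgcb (0.958 to 0.965), Pars2, Rab3ip and Ppp1r3b for Sgcd (0.961 to 0.975), Ldhb, Ppm1k and Tcea3 for Sntb1 (0.988 to 0.990) and Pi15, Gas2 and Crebrf for Dtna (0.994 to 0.996). In both lists stood Ccdc50 for Utrn and Ldhb and Tcea3 for Sntb1. Chst15 was at 57.9 CPM in library 6, above its horse serum mean of 46.8 CPM, where Dmd was at its lowest value.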

How the data were processed

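C2C12 myotubes in 4% horse serum or 4% STEM gave 6 libraries per group, grouped by their labels. Libraries were made from ribosome-depleted total RNA with a stranded kit. The authors deposited raw counts of reads per Ensembl gene on GRCm38, without normalization; the submitters' processing notes name STAR 2.7.3a, featureCounts 1.6.3 and DESeq2 1.26.0, and the annotation release and strand setting are not given in the sources used here. If reads of both strands were counted, antisense reads would add to a gene.

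From these counts, edgeR 4.0.16 (R 4.3.3; TMM, filterByExpr, robust quasi-likelihood fit and test) compared the groups over all genes without covariates, with Benjamini-Hochberg adjustment and calls at 0.05 or less. Symbols came from GENCODE M21, and genes outside it held 0.00268% of the counts. CPM used TMM library sizes, log2 CPM a prior count of 2. Exact permutation tests (scipy 1.17.1) were two-sided. DESeq2 1.42.0 and limma-voom (limma 3.58.1) were alternatives, with other scalings, filters and thresholds and each library left out. The fits were tested on simulated data. No library pair of a group agreed within sampling noise (lowest chi-square per degree of freedom 3.29, highest 68.5).

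The members and lists, and the choice to leave out library 6, were made with earlier results of these data known. Named are all members, in each list at most 5 called genes with the lowest p over all libraries and those not detected, the most abundant and undetected markers, and the 3 genes most like each member; others are marked. Levels per length used the union of exons. A few genes named by these criteria were left unreported.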

Additional observations from a re-analysis of the deposited data

Results flagged for a closer look

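The 8 members and the 24 named genes of the related lists, 32 genes in all, were examined in both groups for a library lying far from the other 5 by Dixon's criterion, which flags about 1 in 20 groups by chance. Of 64 groups, 12 had such a library, and in all 12 it was horse serum library 6. The 6 members among them were far below the nearest other library in it, with Dmd at 4.61 CPM against 21.2, Sgca at 56.0 against 79.7, Sgcb at 236 against 314, Sgcd at 28.5 against 57.0, Sntb1 at 84.2 against 125 and Dtna at 86.3 against 153 CPM. Of the other subunits, Cav3 (89.9 CPM) was also low and Sntb2 (58.2 CPM) was high. Gmppb (21.7 CPM), Bgn (540 CPM), Lama1 (9.02 CPM) and Tln2 (206 CPM) were high in it. The 32 genes were read in the same libraries, so these flags are not independent of each other. The share of all genes that Dixon's criterion flags is not given, so the count is not a result about these genes. By a different measure, over all genes tested, library 6 was the lowest horse serum library for 33.1% and the highest for 35.8%. What sets this library apart was not tested.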

How the results depend on the processing

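The 8 members were recomputed under 19 alternatives each, 152 values in all. The direction was kept in 152 and the call in 148, and the 4 calls gained (Dmd, Sgca, Sgcb and Sgcd) all came without horse serum library 6. Utrn, Sntb1, Dtna and Dag1 were called under all 19. Without that library the difference in mean log2 CPM was -0.80 for Dmd (exact permutation p = 0.00433, the smallest that 6 against 5 libraries can give), -0.22 for Sgca (p = 0.00866 by the same exact test), -0.12 for Sgcb (exact p = 0.00866) and -0.45 for Sgcd (exact p = 0.00433). With each of the 12 libraries left out in turn, between 4 and 8 members, between 4459 and 7245 of all genes, and between 7 and 11 of the cytoskeletal partners were called, the highest count each time without horse serum library 6. At an adjusted p of 0.01, 3266 genes and 4 of the cytoskeletal partners were called. Other scalings moved the median log2 fold change of all genes by at most 0.0202, and total counts or upper quartile scaling gave 54.7% or 47.1% of calls as higher, against 52.1%. For Dmd, limma-voom gave a log2 fold change of -0.32 in place of -0.58. The causes of these changes were not tested. No paired analysis was possible because the numbers of the libraries are not shared between the groups. Depth limits Dmd most, at 90 to 478 counts per library.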
